A study of Mus musculus with 24 samples.

Results

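Fluid fills kidney cysts because the tubule cells that line them secrete chloride, and sodium and water follow. This report describes 8 genes of that secretion, selected by gene symbol from the read count table of whole mouse kidneys: the apical chloride channels Cftr and Ano1, the cotransporter Slc12a2, the sodium pump subunit Atp1b1, the potassium channel Kcnn4, and the ATP receptors P2ry2, P2rx7 and P2rx4. All 8 were found among 54532 genes, each in 1 row, and all 8 were among the 22570 genes that were tested. RNA-seq was performed on 24 kidneys from mice aged 18 days, of strain C57BL/6 by the labels and C57BL/6J by the study's methods, and each kidney gave 1 library. Every mouse carried the RC missense allele of Pkd1 on one chromosome. In RC/+ mice (n = 3), called control in the labels, the other allele was a floxed Pkd1 that was still intact. In RC/- mice (n = 5), called cystic, Ksp-Cre, which is active in kidney tubules, had deleted the floxed allele. RC/- and RC/+ mice differ in Cre as well as in the deleted allele, and in that comparison these cannot be told apart, whereas RC/-, RC/- D18 and RC/- D53 mice all carried Cre. In the D18 line (progeny of founder 3) and the D53 line (progeny of founder 2), CRISPR/Cas9 had removed the binding motif for the microRNA miR-17 from the RC allele. Each line traces back to a single edited founder and contributed 3 control mice (RC/+ D18 and RC/+ D53) and 5 cystic mice (RC/- D18 and RC/- D53). The paper's breeding scheme could give edited and unedited genotypes from the same parents. No founder is given for the unedited mice sequenced here. In comparisons of edited with unedited mice, founder line and motif deletion therefore cannot be told apart.

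In a secreting tubule cell, SLC12A2 (NKCC1) loads chloride across the basolateral membrane together with sodium and potassium. The sodium pump, whose beta subunit is encoded by Atp1b1, keeps the sodium gradient that drives this uptake, and potassium channels such as KCNN4 return potassium and hold the membrane voltage. Chloride leaves through CFTR, which opens on cAMP signalling, or through ANO1 (TMEM16A), which opens on calcium. ATP released into the lumen acts on P2Y2, a G protein-coupled receptor that raises calcium, and on P2X4 and P2X7, which are ATP-gated cation channels. In polycystic kidney disease, cAMP-driven secretion through CFTR is the textbook route of cyst filling. Several of these genes are also used by cells outside the tubule, including P2rx7, P2rx4 and Kcnn4 in macrophages.

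Counted reads per library ran from 20.4 M to 30.8 M, of which 3.16% to 6.78% were mitochondrial. Values are given as CPM, the reads of a gene scaled to an equal library total, and differences as log2 fold changes from limma-trend with Benjamini-Hochberg adjustment over all genes tested. Mean Pkd1 ranged from 50.7 to 61.7 CPM over the 6 groups, and a count over the whole gene does not check the deletion of floxed exons or of the motif. Principal cell markers of the collecting duct and the proximal tubule markers were present in every library. A set of 8 libraries stood apart, namely replicates 20 to 22 of RC/- D18 and the 5 of RC/- D53. Their summed CPM of 6 skeletal muscle markers was 147 to 194, against 5.27 to 9.36 in the other 16 libraries. This set is called libraries 20 to 27 below. In whole-kidney RNA, fewer cells of a type and less RNA per cell cannot be told apart.

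In RC/- against RC/+ kidneys, 4 of the 8 genes were higher (Slc12a2, P2ry2, P2rx7 and P2rx4), 1 was lower (Atp1b1), and Cftr, Ano1 and Kcnn4 did not pass the test. Of all genes tested, 25.5% were higher and 12.2% lower in that comparison. In RC/- D18 against RC/- kidneys, Atp1b1 was higher and Kcnn4, P2ry2, P2rx7 and P2rx4 were lower, where 14.3% of all genes were higher and 26.9% lower. RC/- D53 against RC/- kidneys gave 1 higher gene, Atp1b1, and 5 lower genes, Slc12a2 and the same 4, where 11.3% of all genes were higher and 18.9% lower. These 3 comparisons share the RC/- libraries, so they are not independent of one another. The median log2 fold change of the 8 genes was 0.43, -0.37 and -0.39 in the 3 comparisons, beside 0.14, -0.10 and -0.08 for all genes. Under TMM factors the median of all genes moved to 0.01, 0.00 and 0, and the share of higher genes among all called went from 67.7% to 49.7%, from 34.8% to 50.2% and from 37.4% to 53.2%. With that scaling 3 of the 8 genes were called in RC/- against RC/+ (P2ry2, P2rx7 and Atp1b1), where 3844 of the 22570 genes tested were higher and 3896 lower. Medians of the 8 with that scaling were 0.29, -0.25 and -0.30 in the 3 comparisons.

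**Figure D1:**
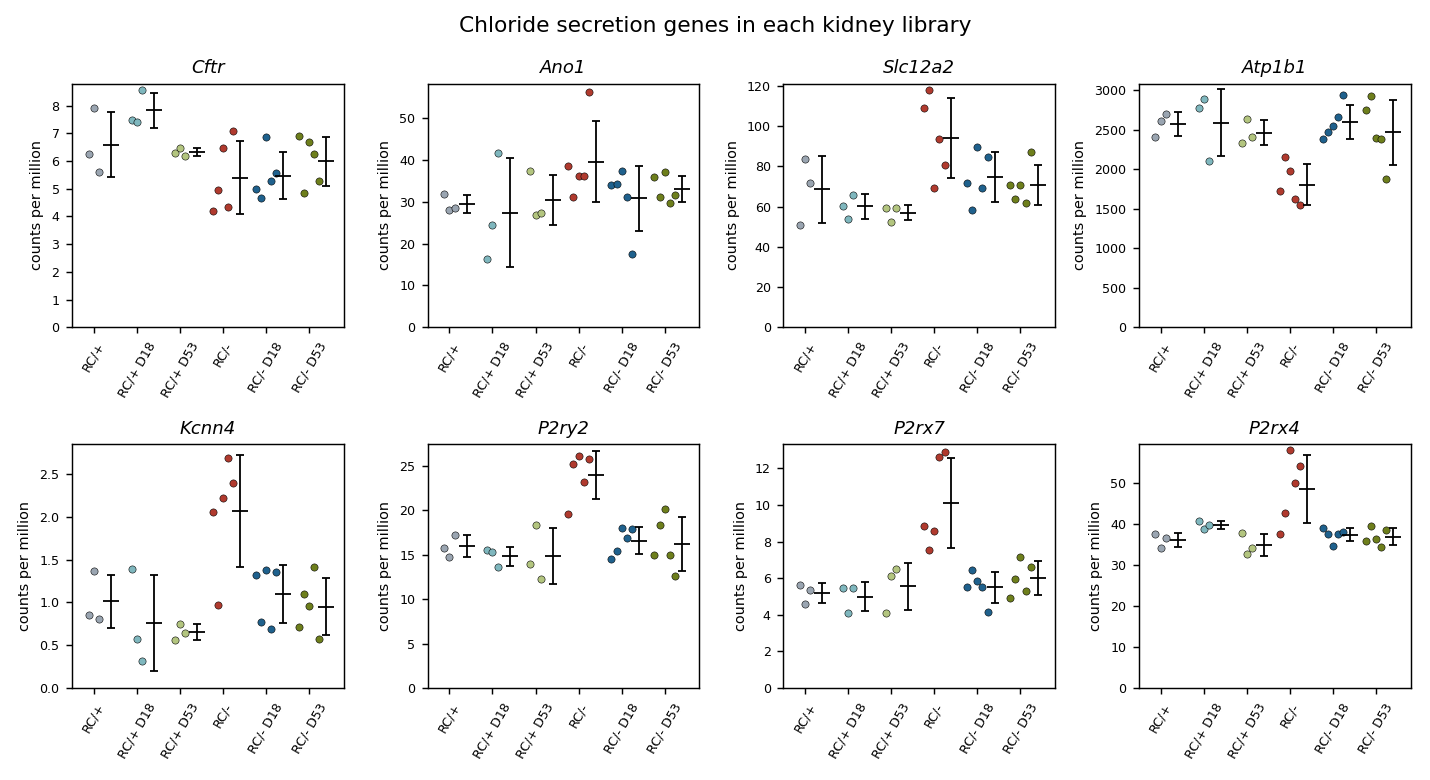
CPM (linear axes from 0) of the 8 genes in each of the 24 libraries by group, with the mean and SD beside the points (n = 3 per RC/+ group and n = 5 per RC/- group). The 5 RC/- libraries lie above those of the RC/+ group for P2ry2 and P2rx7 and below them for Atp1b1, while Cftr lies between 4.19 and 8.57 CPM throughout.

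**Figure D2:**
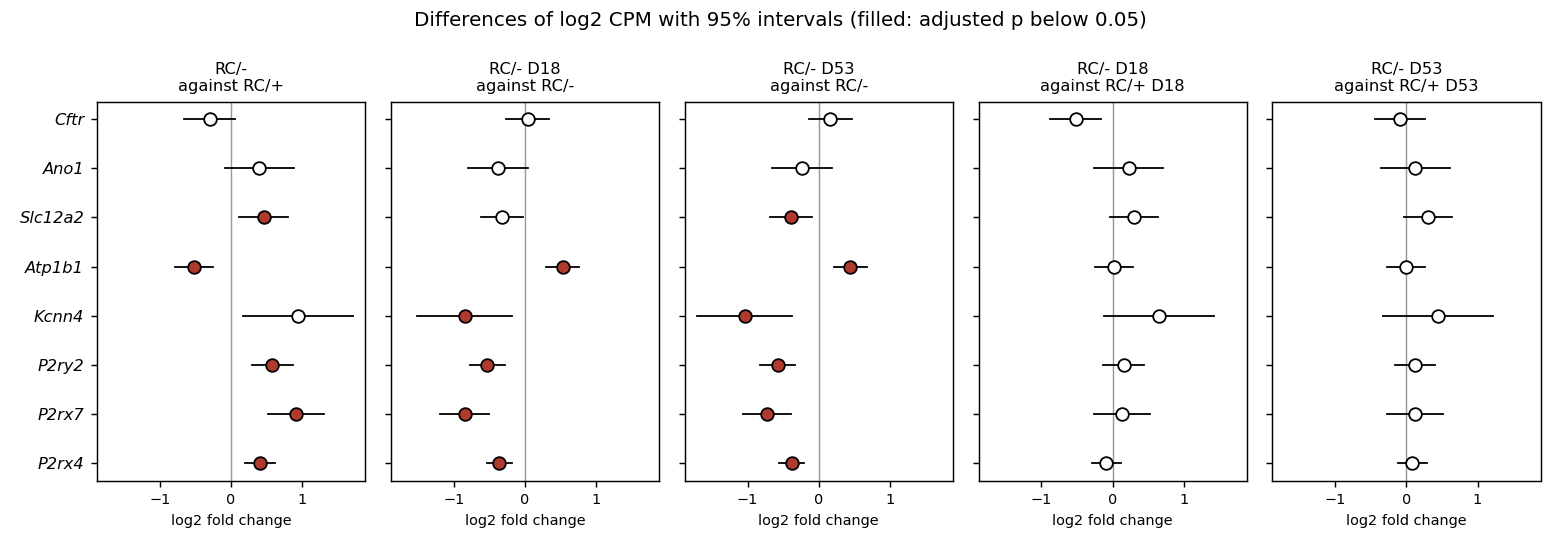
Log2 fold change of CPM (x axis) with its 95% interval for the 8 genes (y axis) in 5 comparisons, filled where the adjusted p was below 0.05. Filled points are found in the 3 comparisons that use the RC/- group, and no gene is filled within the D18 or D53 line.

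The channel that carries chloride out of the cell, Cftr (ENSMUSG00000041301, GRCm38 chr6:18170687-18322768, plus strand), was not higher in cystic kidneys. Cftr read 6.25, 7.92 and 5.62 CPM in RC/+ and 4.19, 4.94, 6.47, 4.32 and 7.08 CPM in RC/- libraries, from 98 to 179 reads each. The groups overlapped, and the difference had a log2 fold change of -0.30 (SE 0.172, 95% interval -0.66 to 0.05, adjusted p = 0.178).  DESeq2 called Cftr lower in this comparison (log2 fold change -0.42, adjusted p = 0.0464). RC/- D18 kidneys had 5.47 ± 0.852 CPM and RC/- D53 kidneys 5.99 ± 0.895 CPM (SD, n = 5 each), which differed from RC/- by 0.04 (adjusted p = 0.864) and 0.17 (adjusted p = 0.448) on the log2 scale. The highest level of Cftr among the groups was in RC/+ D18, at 7.49, 7.42 and 8.57 CPM. RC/- D18 libraries, at 4.99, 4.65, 6.87, 5.28 and 5.58 CPM, all lay below these. This difference of -0.52 ± 0.172 (SE) had an unadjusted p of 0.0059 and an adjusted p of 0.286, and 5.76% of all genes tested had groups that did not overlap there. RC/+ D53 held 6.32 ± 0.145 CPM (SD, n = 3).

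Ano1 (ENSMUSG00000031075, chr7:144588549-144751974, minus strand), the calcium-activated channel, had 31.8, 28.0 and 28.4 CPM in RC/+ and 38.4, 31.1, 36.2, 36.0 and 56.1 CPM in RC/- kidneys. RC/- replicate 17 was the highest of all 24 libraries. The log2 fold change was 0.40 ± 0.235 (SE, adjusted p = 0.191). Its spread was wide in RC/+ D18 as well, with 16.2, 24.4 and 41.6 CPM, while RC/+ D53 held 30.5 ± 5.93 CPM (SD, n = 3). In RC/- D18 (30.8 ± 7.82 CPM) and RC/- D53 (33.0 ± 3.19 CPM, SD, n = 5 each), Ano1 was -0.38 (adjusted p = 0.145) and -0.24 (adjusted p = 0.425) from RC/- on the log2 scale. Neither interval excluded a log2 difference of 0, and they reached down to -0.80 and -0.66.

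Slc12a2 (ENSMUSG00000024597, chr18:57878678-57946821, plus strand) rose 1.37-fold in RC/- kidneys (log2 fold change 0.46 ± 0.164, SE, adjusted p = 0.0302). Control RC/+ libraries had 50.8, 83.5 and 71.6 CPM and RC/- libraries had 109, 118, 69.2, 93.6 and 80.7 CPM. The groups overlapped, and the call was lost under TMM factors (adjusted p = 0.16), edgeR (adjusted p = 0.173) and DESeq2 (adjusted p = 0.154). It was also lost without RC/+ replicate 4 (log2 fold change 0.26, adjusted p = 0.276), RC/- replicate 13 (0.40, adjusted p = 0.0705) or RC/- replicate 14 (0.37, adjusted p = 0.0787). RC/- D18 libraries read 72.0, 58.2, 89.7, 69.1 and 84.7 CPM, a log2 difference of -0.32 from RC/- (adjusted p = 0.0737), which was called without RC/- replicate 15 (-0.42, adjusted p = 0.0179), without RC/- D18 replicate 20 (-0.39, 0.0382) and with libraries 20 to 27 as a covariate (-0.51, 0.0377). In RC/- D53 libraries, at 70.6, 63.7, 70.6, 61.9 and 87.2 CPM, Slc12a2 was lower than in RC/-, with a log2 difference of -0.39 ± 0.142 (SE, adjusted p = 0.0381). That call was lost under TMM factors (adjusted p = 0.132), edgeR (0.108) and DESeq2 (0.0767), with no filter on low counts (0.0639), and without RC/- replicate 13, 14 or 16 or RC/- D53 replicate 23, 24, 25 or 26, with adjusted p up to 0.116. RC/+ D18 held 60.1 ± 6.03 CPM (SD, n = 3). RC/- D53 libraries all lay above the RC/+ D53 libraries (52.6 to 59.4 CPM), with a log2 difference of 0.30 and an adjusted p of 0.451, where 11.6% of all genes had groups that did not overlap. All RC/- D53 and no RC/+ D53 libraries belong to libraries 20 to 27, and with these as a covariate the difference changed sign.

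Atp1b1 (ENSMUSG00000026576, chr1:164437109-164458355, minus strand), the beta subunit of the sodium pump, was the only gene of the 8 that was called lower in RC/- and higher in the edited groups. RC/+ kidneys had 2401, 2604 and 2701 CPM and RC/- kidneys 1721, 2159, 1972, 1618 and 1551 CPM. All RC/- libraries lay below all RC/+ libraries, and the log2 fold change was -0.52 ± 0.129 (SE, 0.698-fold, adjusted p = 0.00252). RC/- D18 kidneys read 2380, 2469, 2551, 2656 and 2942 CPM, all above the RC/- libraries, a rise on the log2 scale of 0.53 ± 0.112 (SE, adjusted p = 0.000437). RC/- D53 kidneys read 2750, 2925, 2391, 2386 and 1870 CPM. Of these, replicate 27 was within the RC/- range, and the log2 fold change was 0.44 ± 0.112 (SE, adjusted p = 0.00367). Control groups of the edited lines held 2586 ± 423 CPM (RC/+ D18) and 2460 ± 159 CPM (RC/+ D53; SD, n = 3 each). Of its 3081 exon bases, 575 (18.7%) are shared with Nme7 on the opposite strand, and the strand setting of the counting is not given in the sources used here. Nme7 averaged 17.7 CPM in RC/+ and 20.6 CPM in RC/- kidneys, far below Atp1b1. These levels do not show how the shared bases affected the count of Atp1b1.

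Kcnn4 (ENSMUSG00000054342, chr7:24370263-24386690, plus strand), a calcium-activated potassium channel, was read at 7 to 64 counts per library and is the least precise of the 8. It had 0.858, 1.37 and 0.803 CPM in RC/+ and 2.05, 0.971, 2.22, 2.69 and 2.39 CPM in RC/- kidneys. Only RC/- replicate 14 lay within the RC/+ range, and the log2 fold change of 0.94 ± 0.375 (SE) had an adjusted p of 0.0512. The gene was called with sex as a covariate (adjusted p = 0.0366), without RC/+ replicate 5 (1.17, adjusted p = 0.0417) and without RC/- replicate 14 (1.18, adjusted p = 0.0124). RC/- D18 kidneys held 1.31, 0.767, 1.37, 0.687 and 1.35 CPM, and RC/- D53 kidneys 0.713, 1.10, 0.953, 1.42 and 0.577 CPM. Kcnn4 was lower than in RC/- in both, with log2 fold changes of -0.85 ± 0.325 in D18 (SE, adjusted p = 0.0395) and -1.04 ± 0.325 in D53 (adjusted p = 0.0165). The edited control groups held 0.759 ± 0.564 CPM (D18) and 0.65 ± 0.094 CPM (D53; SD, n = 3 each). The D18 call was lost under TMM factors (adjusted p = 0.0846), with edgeR (adjusted p = 0.0622), and without RC/- replicate 13, 15, 16 or 17 or RC/- D18 replicate 19 or 21, with adjusted p up to 0.11.

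The ATP receptors moved together. P2ry2 (ENSMUSG00000032860, chr7:100996568-101012866, minus strand), P2rx7 (ENSMUSG00000029468, chr5:122643911-122691432, plus strand) and P2rx4 (ENSMUSG00000029470, chr5:122707544-122729738, plus strand) were called higher in RC/- and lower in both edited RC/- groups. P2rx7 and P2rx4 are neighbours on chromosome 5, with 16111 bases and 1 gene, Gm10064, between them. Their promoters, and that of Atp1b1, which was called in the opposite direction in the same 3 comparisons, are shown so that they can be compared. Each runs 5′ to 3′ from 250 bases before to 50 after a RefSeq transcript start (GRCm38.p6), the most upstream start where the table has 2 (P2ry2 and P2rx7).
P2ry2 promoter, chr7:101012004-101012303, minus strand: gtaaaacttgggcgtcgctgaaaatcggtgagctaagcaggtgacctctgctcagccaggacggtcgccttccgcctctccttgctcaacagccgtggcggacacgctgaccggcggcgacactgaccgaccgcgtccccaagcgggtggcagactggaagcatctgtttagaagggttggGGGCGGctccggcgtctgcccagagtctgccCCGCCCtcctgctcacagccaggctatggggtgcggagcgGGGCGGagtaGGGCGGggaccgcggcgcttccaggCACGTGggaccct
P2rx7 promoter, chr5:122643677-122643976, plus strand: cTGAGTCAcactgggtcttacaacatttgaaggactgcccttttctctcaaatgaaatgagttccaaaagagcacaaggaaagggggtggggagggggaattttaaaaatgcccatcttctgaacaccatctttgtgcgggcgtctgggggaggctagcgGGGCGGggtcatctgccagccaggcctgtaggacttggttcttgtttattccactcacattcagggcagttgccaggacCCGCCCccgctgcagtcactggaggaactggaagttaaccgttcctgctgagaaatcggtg
P2rx4 promoter, chr5:122707294-122707593, plus strand: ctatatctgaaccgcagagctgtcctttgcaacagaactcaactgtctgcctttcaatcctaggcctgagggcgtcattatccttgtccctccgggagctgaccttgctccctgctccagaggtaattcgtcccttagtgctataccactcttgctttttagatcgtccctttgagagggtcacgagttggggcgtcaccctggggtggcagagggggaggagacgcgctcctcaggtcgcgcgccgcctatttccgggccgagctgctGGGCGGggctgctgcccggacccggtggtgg
Atp1b1 promoter, chr1:164458306-164458605, minus strand: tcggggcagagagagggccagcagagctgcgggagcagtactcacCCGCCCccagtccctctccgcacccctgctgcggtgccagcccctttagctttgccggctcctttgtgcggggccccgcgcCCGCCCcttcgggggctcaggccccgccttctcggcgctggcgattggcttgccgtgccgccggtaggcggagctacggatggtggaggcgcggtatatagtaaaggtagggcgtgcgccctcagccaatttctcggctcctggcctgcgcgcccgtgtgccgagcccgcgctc
Capitals mark matches, on either strand, to 5 short motifs that were searched for. The GC box, spelled GGGCGG, was found in all 4 windows, with 4 matches in P2ry2, 2 in P2rx7, 1 in P2rx4 and 2 in Atp1b1, and 35.7% of 32851 RefSeq promoter windows of this length hold one. Cftr (6 matches), Ano1 (4) and Kcnn4 (1) hold it too, so it is not particular to these 4 genes. The E-box, spelled CACGTG, is in P2ry2 and also in Kcnn4, and in 7.15% of all windows. P2rx7 alone holds the letters of the AP-1 motif, TGANTCA, which are in 7.81% of windows. Of the 8 genes, 7 are in the promoter table, and none of these held the cAMP response element TGACGTCA, found in 1.79% of windows. None held the TATA box, spelled TATAAA (13.6% of windows), which says only that these letters are not in these windows.

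P2ry2 read 15.8, 14.8 and 17.2 CPM in RC/+ and 19.6, 25.2, 26.1, 23.2 and 25.7 CPM in RC/- kidneys. Every RC/- library lay above every RC/+ library, a rise of 1.5-fold (log2 fold change 0.58 ± 0.138, SE, adjusted p = 0.00158). RC/- D18 kidneys had 14.5, 15.4, 18.0, 16.8 and 17.8 CPM, all below RC/- (-0.53 ± 0.119, SE, adjusted p = 0.000862). RC/- D53 kidneys had 14.98, 18.4, 20.1, 14.9 and 12.6 CPM, where 1 library overlapped RC/- (-0.58 ± 0.119, SE, adjusted p = 0.000604). The edited control groups held 14.8 ± 1.04 CPM (D18) and 14.9 ± 3.10 CPM (D53; SD, n = 3 each).

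P2rx7 had 5.64, 4.6 and 5.38 CPM in RC/+ kidneys, from 104 to 138 reads, and 8.85, 7.56, 8.58, 12.6 and 12.9 CPM in RC/- kidneys, from 179 to 301 reads. The groups did not overlap, and P2rx7 rose 1.89-fold (log2 fold change 0.92 ± 0.191, SE, adjusted p = 0.00046). At 5.52, 6.47, 5.85, 5.53 and 4.16 CPM in RC/- D18 and 4.93, 5.94, 7.18, 5.28 and 6.60 CPM in RC/- D53, all edited libraries lay below the RC/- libraries. The log2 fold changes were -0.85 ± 0.165 (adjusted p = 0.000203) and -0.73 ± 0.165 (SE, adjusted p = 0.00151). RC/+ D18 held 5.001 ± 0.766 CPM and RC/+ D53 5.56 ± 1.29 CPM (SD, n = 3 each).

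P2rx4 changed least of the receptors but with the smallest standard errors. RC/+ kidneys had 37.5, 34.1 and 36.5 CPM, and RC/- kidneys 37.4, 42.7, 58.0, 49.9 and 54.1 CPM. Only RC/- replicate 13 fell within the RC/+ range, and the log2 fold change was 0.41 ± 0.0994 (SE, 1.33-fold, adjusted p = 0.00206; 0.27 and 0.0528 under TMM factors). RC/- D18 kidneys lay within 34.7 to 39.0 CPM and RC/- D53 kidneys within 34.4 to 39.4 CPM. The edited controls held 39.6 ± 0.949 CPM (RC/+ D18) and 34.8 ± 2.69 CPM (RC/+ D53; SD, n = 3 each). RC/- D18 and RC/- D53 kidneys differed from RC/- by -0.36 ± 0.0861 (adjusted p = 0.00158) and -0.38 ± 0.0861 (SE, adjusted p = 0.00152).

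Of the 8 genes, 3 had RC/- and RC/+ libraries that did not overlap, against 37.6% of all genes. RC/- D18 and RC/- did not overlap for 3 genes (27.8% of all genes), and RC/- D53 and RC/- for 1 gene, P2rx7 (18.8% of all genes). When libraries 20 to 27 were left out, RC/- D18 kept 2 libraries, and 3 of the 8 genes were called against RC/- (Atp1b1, P2ry2 and P2rx7). For RC/- D53, all 5 libraries belong to that set. With the set as a covariate, which then rests on RC/- D18 replicates 18 and 19 against 20 to 22, 1 of the 8 genes was called in RC/- D53 against RC/- (P2ry2), instead of 6. Estimates in that fit were Slc12a2 -0.71 (adjusted p = 0.0709), Atp1b1 0.28 (0.436), Kcnn4 -1.15 (0.254), P2rx7 -0.51 (0.323) and P2rx4 -0.32 (0.223). The shares of all genes called with these libraries left out or as a covariate are not given here. The lower counts are therefore not read as particular to the 8 genes.

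Within the edited lines, none of the 8 genes passed the test between cystic and control kidneys. In RC/- D18 against RC/+ D18, 0 of 8 passed in limma, edgeR or DESeq2, and 1 (Cftr) had an unadjusted p below 0.05. Of all 22570 genes tested, 2011 had an unadjusted p below 0.05 and 0.266% were called there. RC/- D53 against RC/+ D53 gave 0 of 8 with each tool and 0 at an unadjusted p below 0.05, where 2.6% of all genes were called. Intervals for P2rx7 ran from -0.26 to 0.53 in D18 and from -0.27 to 0.51 in D53, and those for Atp1b1 from -0.25 to 0.29 and from -0.28 to 0.26. Kcnn4 remained wide, from -0.12 to 1.43 and from -0.33 to 1.22. The motif deletion in control kidneys gave 0 of 8 genes in D18 (RC/+ D18 against RC/+, 0.00443% of all genes called) and 0 of 8 in D53 (0% of all genes called), with no unadjusted p below 0.05 and no call by edgeR or DESeq2. RC/- D53 against RC/- D18 also gave 0 of 8 genes with all 3 tools and at an unadjusted p below 0.05 (0.266% of all genes called). Genes with an unadjusted p below 0.05 numbered 2993 there, 1013 in RC/+ D18 against RC/+ and 525 in RC/+ D53 against RC/+.

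Whether the cystic difference itself differed between lines was tested by interaction. For D18 against the unedited line, 3 of 8 genes were called, where 17.1% of all genes were. The D18 difference minus the unedited difference was 0.54 ± 0.183 for Atp1b1 (SE, adjusted p = 0.0448), -0.78 ± 0.27 for P2rx7 (adjusted p = 0.047) and -0.49 ± 0.141 for P2rx4 (adjusted p = 0.0162). P2ry2, at -0.43 ± 0.194, did not pass (adjusted p = 0.143). The call of Atp1b1 was lost without any 1 of RC/+ replicates 4 to 6, RC/+ D18 replicate 9, RC/- replicates 13, 16 and 17 and RC/- D18 replicates 20 to 22, with values of 0.40 to 0.58 and adjusted p up to 0.185. That of P2rx7 was lost without any 1 of RC/+ replicates 4 to 6, RC/+ D18 replicates 7 and 9, RC/- replicates 16 and 17 and RC/- D18 replicates 18 and 20 to 22 (-0.84 to -0.69, adjusted p up to 0.124), and that of P2rx4 without RC/+ replicate 5 (-0.46, adjusted p = 0.0505). Of all genes called in this interaction 36.9% were higher, and 51.5% under TMM factors, where Atp1b1 was the only one of the 8 still called. For D53, 0 of 8 genes passed in limma and edgeR and 2 in DESeq2 (Atp1b1 and P2rx7), and 11.3% of all genes were called in limma. An unadjusted p below 0.05 was found for 4 of the 8, and for 5782 of all 22570 genes tested. Estimates were 0.51 for Atp1b1 (adjusted p = 0.0751), -0.80 for P2rx7 (0.0565), -0.46 for P2ry2 (0.134) and -0.33 for P2rx4 (0.14). P2rx7 was called without RC/+ D53 replicate 10, RC/- replicate 14 or RC/- D53 replicate 25 or 27, Atp1b1 without RC/- replicate 14 or RC/- D53 replicate 27, and P2rx4 without RC/- replicate 13. The share of higher genes among all called was 41.9%, and 60.2% under TMM factors. All RC/- D53 libraries belong to libraries 20 to 27, and none of the other groups in this interaction do. That set and the cystic state of the D53 line cannot be told apart in it.

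Levels of different genes were set on one scale as CPM per kilobase of exon. In RC/+ kidneys Atp1b1 stood far above the others, at 834 ± 49.8 CPM per kilobase (SD, n = 3). Slc12a2 (6.28 ± 1.51), P2rx4 (5.13 ± 0.246), Ano1 (4.71 ± 0.338) and P2ry2 (4.06 ± 0.313) formed the next group, in which each neighbour was within the sum of both SDs. P2rx7 (0.872 ± 0.0903) and Cftr (0.849 ± 0.153) did not differ beyond their spread, and Kcnn4 was last (0.198 ± 0.0613). In RC/- kidneys P2rx7 was at 1.69 ± 0.414 and Cftr at 0.696 ± 0.168 CPM per kilobase.

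Other genes of the same processes were read from lists of related genes. Up to 3 called genes with the largest change are named per list and comparison. A gene named for only 1 edited line may therefore differ in the other line too. None of these lists had a gene called in RC/- D53 against RC/- D18, where 0.266% of all genes were. Of 24 other chloride channel genes tested, 6 were higher and 6 lower in RC/- against RC/+ (median log2 fold change -0.12), and the split became 2 higher and 9 lower under TMM factors. Lrrc8e, a subunit of the volume-regulated anion channel, rose from 2.82 ± 0.768 to 5.77 ± 0.67 CPM (SD, log2 fold change 1.04, adjusted p = 0.000159). Bsnd, the gene of the chloride channel subunit barttin, was lower (-0.89, adjusted p = 0.000553). In RC/- D18 against RC/- kidneys 8 of the list were higher and 3 lower (10 and 2 under TMM factors), and in RC/- D53 6 and 3. Lrrc8e was lower in both (-0.98 and -0.76). Ano2 was higher in D18 at 0.172 against 0.0508 CPM, a level of few reads, and Bsnd was higher in D53 (0.73).

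Among 15 genes of cation-chloride cotransport and its kinases, 4 were higher and 5 lower in RC/- (median -0.17). The largest differences were the salt-reabsorbing cotransporters Slc12a3 (215 ± 72.5 CPM against 690 ± 19.5 in RC/+, log2 fold change -1.76) and Slc12a1 (1109 ± 414 against 2379 ± 152 CPM, -1.18), and the kinase Wnk1 (-0.96), with adjusted p from 2.33e-07 to 0.000145. These 3 were the leading genes in both edited comparisons too, higher by 1.86, 1.18 and 1.03 in D18 and by 1.33, 0.97 and 0.81 in D53. In these the list had 6 higher and 3 lower, and 5 higher and 3 lower (6 and 2 under TMM factors). Slc12a3 and Slc12a1 are also markers of the distal convoluted tubule and the thick ascending limb.

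The 12 other sodium pump subunits tested gave 5 higher and 3 lower genes in RC/- (3 and 3 under TMM factors). The FXYD regulators Fxyd4 (226 ± 48.8 against 61.0 ± 2.94 CPM, log2 fold change 1.87) and Fxyd5 (25.3 ± 5.59 against 9.21 ± 0.881 CPM, 1.43) rose, and Fxyd2, the gamma subunit, fell (-0.97, adjusted p = 4.36e-06). Fxyd4 and Fxyd5 were lower in RC/- D18 (-1.38 and -1.16) and in RC/- D53 (-0.84 and -0.96). Fxyd6 was lower in D18 (-0.98) and Fxyd2 higher in D53 (0.77). The list counted 3 higher and 4 lower genes in D18, and 2 and 3 in D53. Fxyd4 is also on the list of principal cell markers.

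For 18 other epithelial potassium channel genes, 4 were higher and 6 lower in RC/-. Kcnj15, an inward rectifier, fell from 413 ± 82.9 to 145 ± 20.01 CPM (log2 fold change -1.50, adjusted p = 1.16e-08), and the regulatory subunit genes Kcnmb2 and Kcne1 differed by -1.60 and 1.05. In RC/- D18 the list had 5 higher and 4 lower genes (6 and 3 under TMM factors), led by Kcnj15 (1.36), Kcnq1 (-0.72) and Kcnmb4. In RC/- D53 it had 4 higher and 5 lower (5 and 3 under TMM factors), led by Kcnj15 (1.09), Kcnma1, the large-conductance calcium-activated channel (-0.83), and Kcnmb4. Kcnmb4 was at 0.202 CPM in RC/- and at 0.0216 and 0.0146 CPM in the edited groups, too few reads for a fold.

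Other purinergic receptors had 5 higher genes and 1 lower gene of 14 in RC/- (median 0.39, beside 0.14 for all genes), and 4 higher and 1 lower under TMM factors. P2ry6, a receptor for uracil nucleotides, rose from 5.18 ± 1.11 to 13.3 ± 3.30 CPM (SD, log2 fold change 1.33, adjusted p = 2.34e-06). Adora2b, an adenosine receptor that raises cAMP, rose from 5.27 ± 0.793 to 12.8 ± 2.05 CPM (1.26, adjusted p = 3.2e-06), and P2ry14, a receptor for UDP-sugars, rose by 0.81. In RC/- D18 against RC/-, 1 of the 14 was higher and 4 lower (2 and 4 under TMM factors), with P2ry6 at -1.07, Adora2b at -1.03 and P2ry1, an ADP receptor, at 0.87. RC/- D53 had 2 higher and 3 lower, with Adora2b at -0.86, P2ry6 at -0.76 and P2ry1 at 0.76.

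Genes that release or break down extracellular ATP split 5 higher and 7 lower of 17 in RC/-. The ATP release channel gene Panx1 rose from 6.38 ± 0.653 to 15.3 ± 3.25 CPM (log2 fold change 1.23, adjusted p = 9.07e-05) and the vesicular nucleotide transporter Slc17a9 from 0.626 ± 0.188 to 1.45 ± 0.194 CPM (1.15), while the phosphatase gene Alpl fell (-1.15). Panx1 was lower in RC/- D18 (-1.27), where Alpl (1.27) and the ectonucleotidase Entpd8 (1.21) were higher. In RC/- D53 the leading genes Entpd8, Enpp3 and Alpl were all higher (0.90, 0.89 and 0.87). The list counted 7 higher and 6 lower in D18, and 7 and 3 in D53. Of 12 genes for Cftr binding and trafficking, 4 were higher and 4 lower in RC/- (1 and 5 under TMM factors), 4 and 3 in D18 (6 and 2 under TMM factors), and 4 and 1 in D53. The scaffold genes Pdzk1 and Slc9a3r2 were lower in RC/- (-1.57 and -0.51) and higher in both edited groups (1.42 and 0.52 in D18, 1.12 and 0.44 in D53), and Stx1a, a syntaxin that binds CFTR, was higher in RC/- (1.20) and lower in the edited groups (-0.93 and -0.72).

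**Figure D3:**
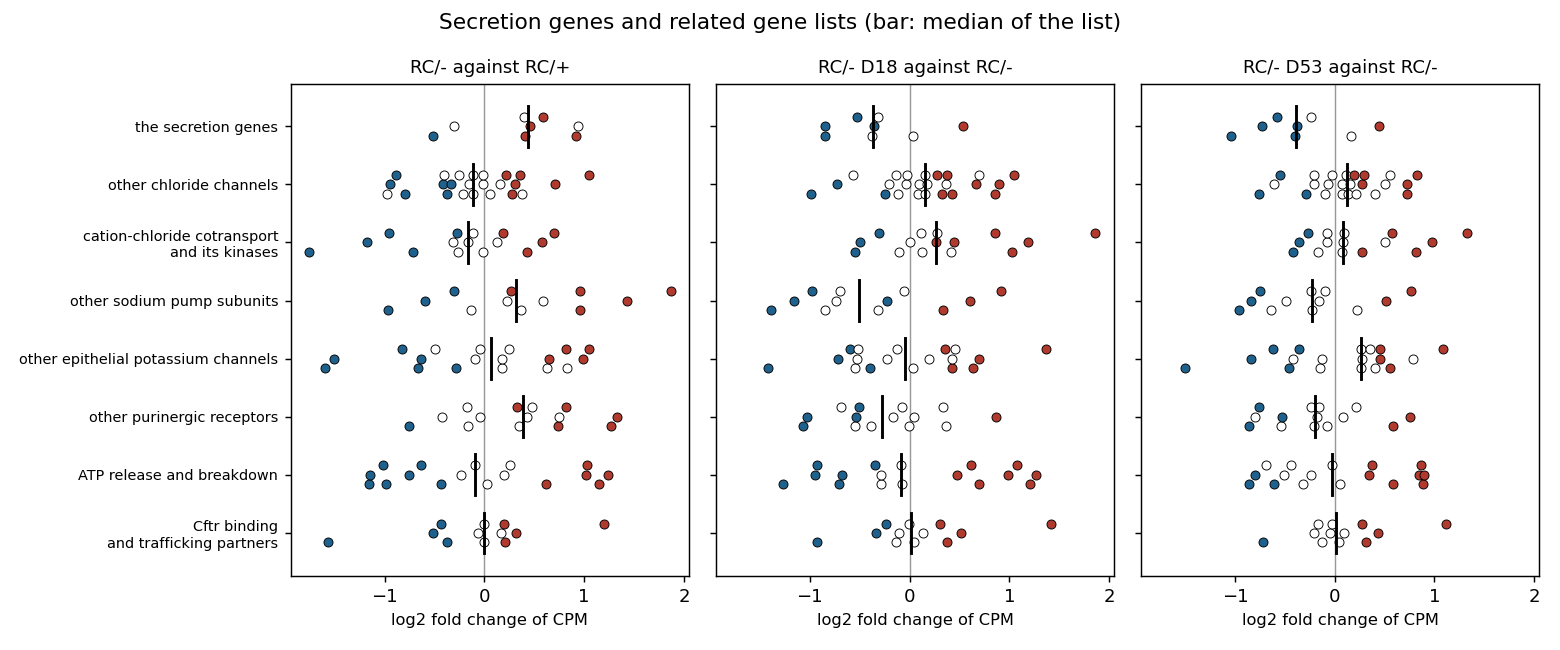
Log2 fold change of CPM (x axis) of each gene tested on the 8 lists (y axis) in 3 comparisons, red where called higher, blue where called lower, white where not called, with a bar at the median of each list. The secretion genes have a median of 0.43 in RC/- against RC/+ and -0.37 and -0.39 in the edited comparisons.

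Cell type markers also differed in the comparisons that use the RC/- group. All 10 macrophage markers were higher in RC/- against RC/+, with a summed level of 492 to 872 CPM against 257 to 275 CPM, and all 10 were lower in both edited RC/- groups (319 to 351 CPM in D18, 351 to 479 CPM in D53). All 6 smooth muscle markers were higher in RC/- (507 to 976 CPM against 253 to 291 CPM), as were 7 of 9 principal cell markers (2657 to 5044 CPM against 1194 to 1487 CPM). Among tubule injury markers, 5 of 6 were higher in RC/- (273 to 630 CPM against 40.3 to 46.2 CPM).
Markers of other tubule segments were lower in RC/-. This held for all 10 proximal tubule markers (1987 to 4802 CPM against 8775 to 9367 CPM), all 5 of the distal convoluted tubule (236 to 466 CPM against 1197 to 1293 CPM) and 4 of 6 of the thick ascending limb (1940 to 3573 CPM against 4355 to 4929 CPM, with 1 higher). Endothelial markers were lower for 4 of 6 and intercalated cell markers for 3 of 6, with 1 higher. T lymphocyte markers had 1 higher and 1 lower of 8 (9.80 to 13.5 CPM in RC/- against 8.95 to 14.7 CPM), and no red blood cell marker of 6 was called in RC/- against RC/+ (limma). In RC/- D53 against RC/-, 5 of the 6 red blood cell markers were higher (median log2 fold change 0.85), with sums of 420 to 1281 CPM in RC/- D53 and 235 to 435 CPM in RC/-. The only marker at 0 in every library of a group was Ckm of skeletal muscle, in RC/+ D18. Within the D53 line, where 0 of the 8 genes were called, 7 of 10 macrophage and 5 of 9 principal cell markers were higher in RC/- D53 than in RC/+ D53. Of all genes tested, 2.6% were called there. Within the D18 line 2 of 9 principal cell markers and 0 of 10 macrophage markers were called, where 0.266% of all genes were. The part of these cell types in the differences of the 8 genes was not tested.

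**Figure D4:**
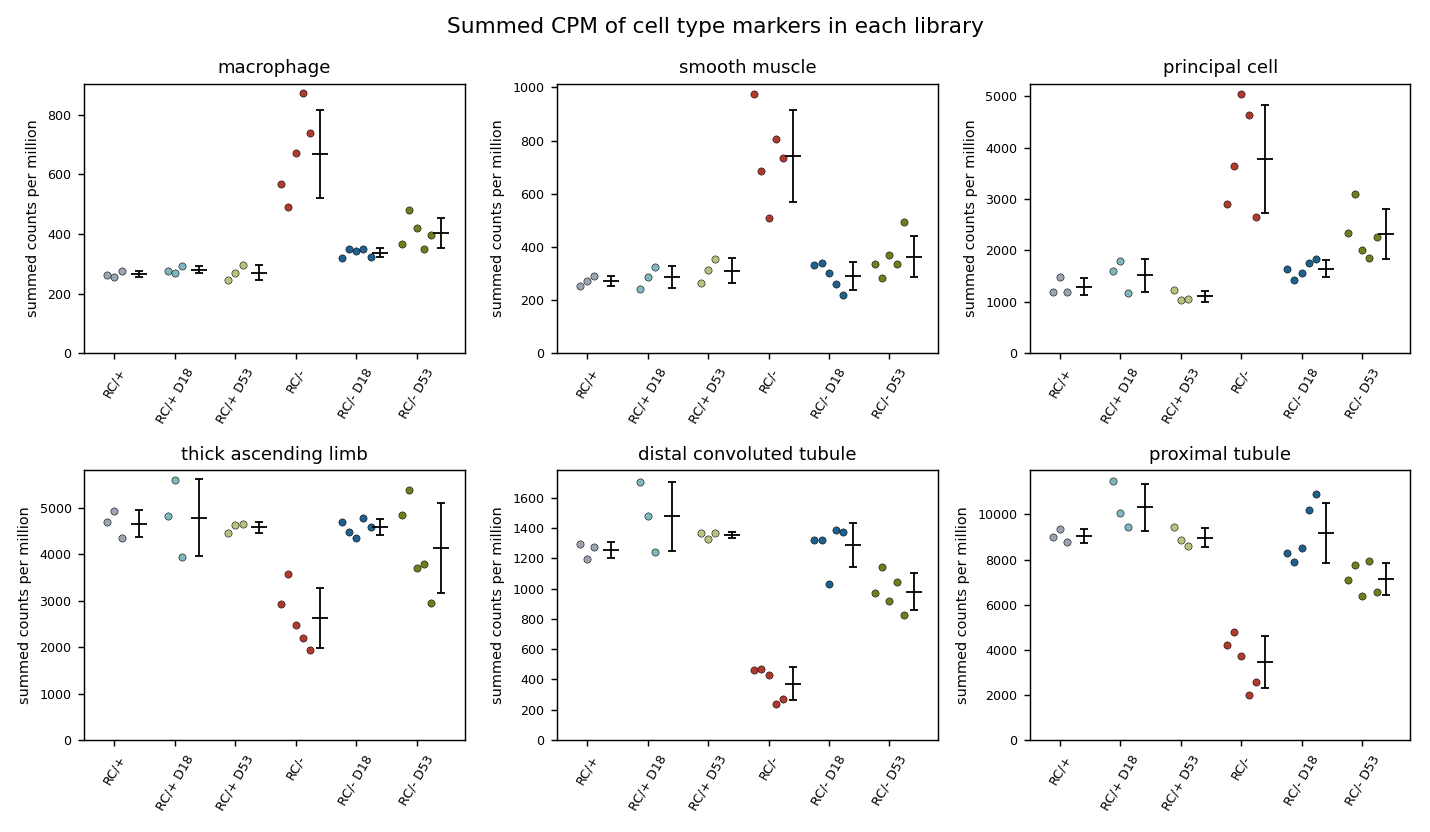
Summed CPM of the markers of 6 cell types (linear axes from 0) in each library by group, with the mean and SD beside the points. Macrophage sums of the 5 RC/- libraries, from 492 to 872 CPM, lie above those of all other libraries, and proximal tubule sums, from 1987 to 4802 CPM, lie below them.

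The genes whose log2 CPM followed each secretion gene most closely over the 24 libraries were found by Pearson correlation among all genes tested. The libraries share groups, so these values describe the set and carry no test. For Cftr they were Ttyh2 (r = 0.77), Ogdhl (0.72) and Gsr (0.71), and for Ano1 Gli2 (0.91), Top2b (0.88) and Nedd4 (0.88). Slc12a2 had the closest partner of all 8 genes, Itga2 (0.97), followed by Endod1 (0.93) and Nyap1 (0.92). Atp1b1 was followed by Aldh1l1 (0.95), Cyfip2 (0.94) and Gm5113 (0.94), and Kcnn4 by Hcar2 (0.85), Daglb (0.82) and Alox5ap (0.82). The receptors had different partners: P2ry2 had Wwc1 (0.92), Atp6v0a1 (0.91) and Fam83h (0.91), P2rx7 had Lgals9 (0.94), Mgp (0.94) and Serpinb6a (0.93), and P2rx4 had Mmp12 (0.90), Tmem176a (0.89) and Gm48709 (0.88). By rank (Spearman) correlation the P2rx4 partners were lower, at 0.77 for Mmp12, 0.50 for Tmem176a and 0.54 for Gm48709. Gm48709 averaged 0.157 CPM, a level of few reads. Among the 8 genes themselves, P2rx7 and Atp1b1 had the largest correlation in size (r = -0.83), and Cftr had none above 0.40 in size. Each of these correlations spans the group differences described above.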

How the data were processed

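Whole-kidney RNA was sequenced by the authors as paired reads, which they trimmed with Trim Galore 0.6.3 and aligned to GRCm38 with STAR 2.5.3a. STAR also counted reads per Ensembl gene, and the deposited values are these raw read counts, without normalization. Which strand setting was kept is not given in the sources used here. The 24 libraries fell into 6 groups by their deposited labels, and no sample was left out. In 39 pairs of libraries within groups, counts differed by more than sampling noise (chi-square per degree of freedom 8.45 to 48.2). Genes without a symbol (343) held at most 0.0261% of a library.

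CPM and log2 CPM (prior count 2, total-count scaling) were computed with edgeR 4.0.16. A gene was tested where its log2 CPM averaged -3 or more, with limma-trend (limma 3.58.1, R 4.3.3) in one model with a mean for each group, two-sided, with Benjamini-Hochberg adjustment in each comparison and a threshold of 0.05. The test and the limit follow the study's methods. Alternatives were TMM factors, the edgeR quasi-likelihood test, DESeq2 1.42.0, no filter, fewer groups, covariates (sex, read from Xist and Ddx3y, with 14 female and 10 male mice, and libraries 20 to 27) and leaving out libraries. Replicates are separate mice. Gene positions come from GENCODE M21. The 8 genes and all lists were chosen with earlier results of these data known. Named genes were the 8, up to 3 called genes with the largest change per list in each of the 3 comparisons with RC/- that use RC/+, RC/- D18 or RC/- D53, and the 3 most alike genes of each of the 8, apart from a gene that is not reported here.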

Additional observations from a re-analysis of the deposited data

Results flagged for a closer look

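In 3 of the 8 genes, the cystic difference in the D18 line differed from that in the unedited line by the interaction test of limma. Atp1b1 had a difference of 0.54 on the log2 scale (adjusted p = 0.0448): RC/- against RC/+ was -0.52 in the unedited line and 0.02 in D18. For P2rx7 the value was -0.78 (adjusted p = 0.047), from 0.92 in the unedited line to 0.13 in D18. P2rx4 had -0.49 (adjusted p = 0.0162), from 0.41 to -0.09. Macrophage marker sums were 492 to 872 CPM in RC/-, 319 to 351 CPM in RC/- D18, 257 to 275 CPM in RC/+ and 269 to 293 CPM in RC/+ D18, and their part in these differences was not tested. With libraries 20 to 27 as a covariate, the 3 values were 0.44 (adjusted p = 0.198), -0.65 (0.196) and -0.46 (0.0722). In the groups of 5 mice, 24 sets of values (8 genes in 3 groups) were examined for a library far from the others by Dixon's ratio, with 0 found on linear CPM and 2 on log2 CPM, where chance gives about 1 in 20. Ano1 in RC/- D18 replicate 22 was at 17.4 CPM, below the other libraries of its group at 31.1 to 37.4 CPM (ratio 0.757), and without it the log2 difference of RC/- D18 from RC/- was -0.185 (adjusted p = 0.467) in place of -0.38. Kcnn4 in RC/- replicate 14 was at 0.971 CPM, below the others at 2.05 to 2.69 CPM (ratio 0.731), and without it RC/- against RC/+ was 1.18 (adjusted p = 0.0124).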

How the results depend on the processing

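The results were recomputed with TMM factors, edgeR, DESeq2, no filter on low counts, only the groups compared, sex or libraries 20 to 27 as covariates, those libraries left out, and each library left out in turn. Calls of Atp1b1, P2ry2 and P2rx7 in RC/- against RC/+ and in RC/- D18 against RC/- held in every one of these settings that was run. Counts of called genes moved by over 1.5 times in these cases: 3 instead of 5 in RC/- against RC/+ with TMM factors, 3 instead of 5 in RC/- D18 against RC/- without libraries 20 to 27, and 1 instead of 6 in RC/- D53 against RC/- with these libraries as a covariate. The D18 interaction gave 1 instead of 3 with TMM factors, edgeR, no filter or sex, 0 with libraries 20 to 27 as a covariate, and 0 to 3 when 1 library was left out (0 without RC/+ replicate 5). The D53 interaction gave 2 instead of 0 with DESeq2 and 0 to 2 when 1 library was left out, with 2 without RC/- replicate 14 or RC/- D53 replicate 27. The cause of these moves was not tested. Of all genes tested, 1424 were called higher and 2434 lower in the D18 interaction. With TMM factors these numbers were 1881 and 1770. For the settings other than TMM factors, the shares of all genes called are not given here. In those settings, a loss or gain of calls among the genes of this report cannot be told from a change across all genes.

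Some log2 fold changes that had not been called changed sign. Not all were near 0: Slc12a2 had been 0.30 in RC/- D53 against RC/+ D53. Ano1 had been -0.24 in RC/- D53 against RC/- and 0.23 in RC/- D18 against RC/+ D18. With libraries 20 to 27 as a covariate, Cftr was -0.13 in RC/- D18 against RC/- and -0.115 in RC/- D53 against RC/-, Ano1 was 0.085 in RC/- D53 against RC/-, and Slc12a2 was -0.013 and P2ry2 -0.106 in RC/- D53 against RC/+ D53. Without these libraries Cftr was -0.13 in RC/- D18 against RC/-. Atp1b1 in RC/- D18 against RC/+ D18 was -0.022 (TMM), -0.035 (edgeR and DESeq2) and -0.079 (covariate, or libraries left out). When 1 library was left out, RC/- D18 against RC/- ran from -0.046 to 0.142 for Cftr. RC/- D18 against RC/+ D18 ran from -0.096 to 0.583 for Ano1 and from -0.125 to 0.104 for Atp1b1. RC/- D53 against RC/+ D53 ran from -0.078 to 0.083 for Atp1b1, from -0.084 to 0.242 for P2rx7 and from -0.001 to 0.284 for P2ry2. No paired analysis was possible because the replicate numbers are not shared between groups. Depth limits Kcnn4 most, at 7 to 64 reads per library.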

Other observations

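Further subunits and kinases were looked at after their values were seen. Atp1b3, a beta subunit of the sodium pump, was higher in RC/- than in RC/+ (0.26, adjusted p = 0.0166), where the median of all genes was 0.14. Under TMM factors the other sodium pump subunits went from 5 to 3 higher genes, and the value of Atp1b3 with that scaling is not given here. Stk39, the kinase SPAK that activates SLC12A2, rose from 70.2 CPM in RC/+ to 105 CPM in RC/- (log2 fold change 0.58, adjusted p = 1.44e-05) and was lower in RC/- D18 (-0.55, adjusted p = 3.68e-06) and RC/- D53 (-0.35, adjusted p = 0.000955). Kcnq1, an epithelial potassium channel, rose from RC/+ to RC/- kidneys, 33.5 against 67.7 CPM (0.99, adjusted p = 1.41e-06), and RC/- D18 and RC/- D53 had 40.2 and 48.5 CPM.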
